A study of Lytechinus variegatus with 18 samples.

Results

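The endoderm of the sea urchin embryo is read here through the transcription factors FoxA, Blimp1, GataE and Bra and the gut marker Endo16. The members were the rows of the deposited annotation whose best purple sea urchin hit carries one of these names, and there were 7 such gene models of 27230 counted. Whole wild-type Lytechinus variegatus embryos were compared, and total RNA of about 150 pooled embryos went into each sample. Control embryos and embryos given ethanol at fertilization were collected at 15, 18 and 21 hours post fertilization (hpf), with 3 biological replicates in each of the 6 groups. The labels state neither the ethanol dose nor how control embryos were handled, and they do not say whether replicates came from separate parents, so p-values measure the spread between these samples. A gene model's level in a whole-embryo library sums over all cells, so that fewer endoderm cells and less RNA per endoderm cell cannot be told apart.

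The gut of a sea urchin embryo forms from the vegetal plate, which bends inwards at gastrulation and is later divided into foregut, midgut and hindgut. In the purple sea urchin, Strongylocentrotus purpuratus, Wnt signals and beta-catenin start a gene network in these cells, in which Blimp1 takes part early and GataE helps to hold the endoderm state through positive feedback. FoxA and Bra act in endoderm cells and later also around the mouth, and Endo16 is a secreted cell-surface protein of the vegetal plate and then of the midgut. These roles were established in that species.

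Sp-FoxA, Sp-Bra and Sp-Endo16 each had 1 gene model. Sp-FoxA is L_var_14241 on chromosome 7, from 41317440 to 41318762 on the plus strand. Sp-Bra is L_var_08961 on chromosome 4, from 36260375 to 36275854 on the plus strand. Sp-Endo16 is L_var_26583 on chromosome 19, from 3203448 to 3215444 on the minus strand. Sp-Blimp1 had a pair of models, L_var_08699 on chromosome 4 from 28363645 to 28372835 on the plus strand and L_var_09190 on the same chromosome from 42818407 to 42827647 on the minus strand. Sp-GataE, spelled Sp-Gatae in the annotation, also had a pair, L_var_01664 on chromosome 1 from 58492332 to 58497404 and L_var_01834 on chromosome 1 from 63965717 to 63970904, both on the plus strand. Positions follow the authors' annotation, and its genome build is not given in the sources used here. Identity to the purple sea urchin hit was 91.7% for Sp-Bra, 80.8% for Sp-FoxA, 70.1% for Sp-Endo16, 78.9% for both Sp-Blimp1 models, 85.1% for L_var_01664 and 54.8% for L_var_01834. All 7 models passed the filter on low counts, as did 18674 gene models in all.

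Library totals were close, between 7133636 and 8000894 counts. Both libraries of replicate 3 at 21 hpf went against the other pairs. Of 760 gene models called between ethanol and control at 18 hpf with the replicate number as a block, 92.9% moved the same way in the 21 hpf pair of replicate 1 and 94.9% in that of replicate 2, but 4.87% in that of replicate 3, where the median difference was -0.80 on the log2 scale. In that pair the library labelled control had 24043 gene models with a count, against 21041 to 22741 in the other control libraries. The one labelled ethanol had 22132, against 22465 to 24253 in the other ethanol libraries. The control and ethanol labels of this pair may be exchanged, which was not tested. The libraries were used as labelled, so every value at 21 hpf and every change from 15 to 21 hpf includes the pair as labelled, and results that turn on it are given with and without it.

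No member passed the threshold between ethanol and control at any of the 3 times without the replicate block, although differences reached 0.91 on the log2 scale, for Sp-Endo16 at 18 hpf. At an adjusted p under 0.05 over all gene models tested (edgeR's quasi-likelihood test with Benjamini-Hochberg adjustment), none of the 7 member models was called at 15 hpf, where 0.0589% of all gene models tested were called, and none at 18 or 21 hpf, where no gene model was called. Unadjusted p-values fell below 0.05 for 1 member model at 15 hpf, 0 at 18 hpf and 1 at 21 hpf, against 2038, 3070 and 128 of all gene models tested. DESeq2 called no member at these times either. At 15, 18 and 21 hpf the median log2 difference of the 7 models was -0.44, -0.35 and 0.39, beside 0.04, 0.05 and -0.02 over all gene models. For the mean of the 3 times, 0 of 7 members and 0.53% of all gene models were called.

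Same-numbered libraries deviated together at 15 and 18 hpf, and with the replicate block the count of members called stayed at 0, while 0.477% of all gene models were called at 15 hpf and 4.07% at 18 hpf. Without both libraries of replicate 3 at 21 hpf and without the block, 0 of 7 were called at each time, beside 0.414%, 1.65% and 0.0628% of all gene models at 15, 18 and 21 hpf. With the block and without that pair, 1 member model was called at 15 hpf (L_var_01664, lower), where 15.4% of all gene models were called. At 18 hpf 2 were called (Sp-Endo16 higher and L_var_01834 lower) beside 26.9%, and at 21 hpf 2 (Sp-Endo16 and L_var_08699, both higher) beside 10.7%.

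**Figure D1:**
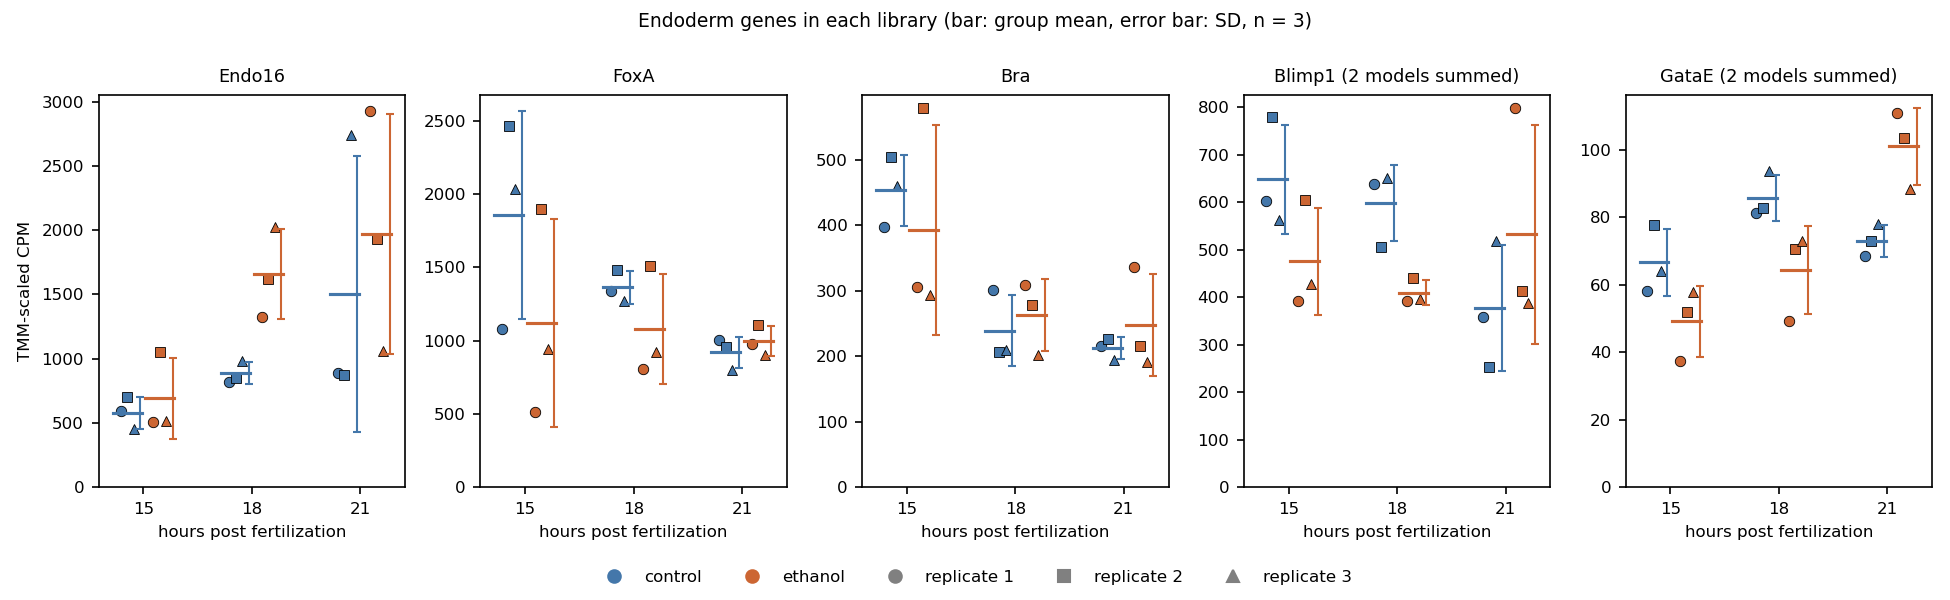
TMM-scaled CPM of the 5 genes in each of the 18 libraries, on linear axes, against hours post fertilization. Points are libraries, horizontal bars are group means and error bars are SD (n = 3). Blimp1 and GataE are sums of 2 gene models. Ethanol libraries of summed GataE lie below the control libraries at 15 and 18 hpf and, as labelled, above them at 21 hpf. The Endo16 libraries of replicate 3 at 21 hpf lie opposite to the other pairs.

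Sp-Endo16, the gut marker, was the member whose ethanol libraries all lay above the control libraries at 18 hpf. At 15 hpf control replicates 1, 2 and 3 had 590.1, 698 and 450.5 CPM (counts per 1000000 of library size after TMM scaling, which trims extreme genes), and ethanol replicates had 503, 1052 and 515 CPM. The groups overlapped there. At 18 hpf the control libraries had 819.6, 853 and 981 CPM and the ethanol libraries 1323, 1623 and 2024 CPM, so every ethanol library was above every control library, as was so for 13.5% of all gene models. At 21 hpf the control libraries had 888, 873 and 2742 CPM and the ethanol libraries 2924, 1929 and 1060.3 CPM: replicates 1 and 2 were higher in ethanol and replicate 3 was higher in the library labelled control.

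The log2 difference of Sp-Endo16 between ethanol and control was 0.25 ± 0.45 (SE) at 15 hpf (adjusted p = 0.851), 0.91 ± 0.45 at 18 hpf (adjusted p = 0.321) and 0.39 ± 0.45 at 21 hpf (adjusted p = 1.0). Averaged over the times it was 0.52 ± 0.26 (adjusted p = 0.241). That mean turned on the pair of replicate 3 at 21 hpf: without its 2 libraries the difference was 0.87 ± 0.20, with an adjusted p of 0.009486, as 18.3% of all gene models were called. With the replicate block and without that pair, Sp-Endo16 rose by 0.90 ± 0.29 at 18 hpf (adjusted p = 0.028) and by 1.48 ± 0.36 at 21 hpf (adjusted p = 0.016). Sp-Endo16 was higher in ethanol in 3 of 3 pairs at 18 hpf and in 2 of 3 pairs at both 15 and 21 hpf.

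Sp-FoxA, a forkhead factor of the endoderm, was lower in ethanol at 15 hpf in every pair, within a wide spread. Control replicates 1, 2 and 3 had 1079, 2463 and 2038 CPM and ethanol replicates 513, 1900.0 and 940.5 CPM at 15 hpf. Replicate 2 was the highest library in both groups, and the groups overlapped. At 18 hpf the control libraries had 1337, 1483 and 1269 CPM and the ethanol libraries 807, 1509.8 and 925 CPM, with replicates 1 and 3 lower and replicate 2 level with its control. At 21 hpf the 6 libraries lay between 800.3 and 1109 CPM, in an order that did not separate the groups. The log2 difference was -0.73 ± 0.40 at 15 hpf (adjusted p = 0.513), -0.33 ± 0.40 at 18 hpf (adjusted p = 0.665) and 0.12 ± 0.40 at 21 hpf (adjusted p = 1.0).

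Sp-Bra, the T-box factor named after mouse Brachyury, showed no common direction between ethanol and control. At 15 hpf its control libraries had 397, 504 and 459 CPM and its ethanol libraries 306, 578 and 294 CPM. At 18 hpf they had 301, 206 and 209 CPM in control and 308, 279 and 201 CPM in ethanol, and at 21 hpf 216, 227 and 194 CPM in control and 336, 215 and 190.4 CPM in ethanol. The groups overlapped at each time, and the pairs disagreed in direction at each time. The log2 difference was -0.21 ± 0.30 at 15 hpf (adjusted p = 0.805), 0.14 ± 0.30 at 18 hpf (adjusted p = 0.820) and 0.22 ± 0.30 at 21 hpf (adjusted p = 1.0).

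Sp-Blimp1, a zinc finger factor, had lower CPM in ethanol libraries than in their same-numbered controls at 15 and 18 hpf, in both of its models. With the 2 models summed, control replicates 1, 2 and 3 had 602, 778 and 562 CPM and ethanol replicates 393, 604 and 428 CPM at 15 hpf. At 18 hpf the sums were 638, 506 and 651 CPM in control and 393, 441 and 395 CPM in ethanol. All 3 pairs were lower in ethanol at both times. The groups of the sum did not overlap at 18 hpf, where 13.8% of all gene models, taken singly, had ethanol libraries below every control library. Taken singly, L_var_08699 and L_var_09190 both overlapped between the groups at 18 hpf. At 21 hpf the sums were 359, 253 and 517 CPM in control and 798, 412 and 387 CPM in ethanol, higher in replicates 1 and 2 and lower in the pair of replicate 3.

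The summed Sp-Blimp1 log2 difference was -0.45 ± 0.31 at 15 hpf (adjusted p = 0.598), -0.55 ± 0.31 at 18 hpf (adjusted p = 0.368) and 0.50 ± 0.31 at 21 hpf (adjusted p = 1.0). The separate models gave -0.44 ± 0.36 and -0.46 ± 0.47 at 15 hpf, -0.50 ± 0.36 and -0.61 ± 0.47 at 18 hpf, and 0.58 ± 0.36 and 0.39 ± 0.47 at 21 hpf for L_var_08699 and L_var_09190, none of them called. With the block and without the pair of replicate 3 at 21 hpf, L_var_08699 was higher by 1.01 ± 0.30 at 21 hpf (adjusted p = 0.039), while L_var_09190 gave 0.87 ± 0.32 (adjusted p = 0.084) and the sum 0.97 ± 0.31 (adjusted p = 0.054). The call at 21 hpf thus rested on 1 of 2 models.

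Sp-GataE, a GATA zinc finger factor, had, for the sum of its 2 models, lower CPM in ethanol libraries at 15 and 18 hpf and higher CPM at 21 hpf, with no overlap between the groups. The sums were 58.2, 77.7 and 64.0 CPM in control replicates 1, 2 and 3 and 37.5, 52.0 and 57.9 CPM in ethanol replicates at 15 hpf. At 18 hpf the sums were 81.2, 82.7 and 93.7 CPM in control and 49.4, 70.5 and 73.0 CPM in ethanol. At 21 hpf they were 68.4, 72.9 and 77.9 CPM in control and 111, 104 and 88.4 CPM in ethanol. The sum lay below control in all pairs at 15 and 18 hpf and above it in all pairs, as labelled, at 21 hpf. Taken singly, L_var_01664 was lower in ethanol in replicate 3 at 21 hpf, and its groups overlapped at 18 and 21 hpf, while those of L_var_01834 overlapped at 15 and 18 hpf. Groups did not overlap in either direction for 14.2%, 27.3% and 2.31% of all gene models at 15, 18 and 21 hpf.

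The summed Sp-GataE log2 difference was -0.44 ± 0.21 at 15 hpf (adjusted p = 0.465), -0.42 ± 0.21 at 18 hpf (adjusted p = 0.323) and 0.47 ± 0.21 at 21 hpf (adjusted p = 1.0). The separate models gave -0.75 ± 0.31 and -0.32 ± 0.23 at 15 hpf, -0.35 ± 0.30 and -0.44 ± 0.23 at 18 hpf, and 0.42 ± 0.30 and 0.48 ± 0.23 at 21 hpf for L_var_01664 and L_var_01834. None of these was called. L_var_01664 had 16.8, 29.8 and 16.4 CPM in control and 10.5, 14.4 and 12.5 CPM in ethanol at 15 hpf, where its groups did not overlap. With the block and without the pair of replicate 3 at 21 hpf it was lower at 15 hpf, with a log2 difference of -0.72 ± 0.19 (adjusted p = 0.018), and L_var_01834 was lower at 18 hpf, with one of -0.46 ± 0.16 (adjusted p = 0.046). The summed counts under the same setting gave adjusted p-values of 0.065 at 15 hpf, 0.055 at 18 hpf and 0.058 at 21 hpf, so those calls rested on 1 of 2 models as well.

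**Figure D2:**
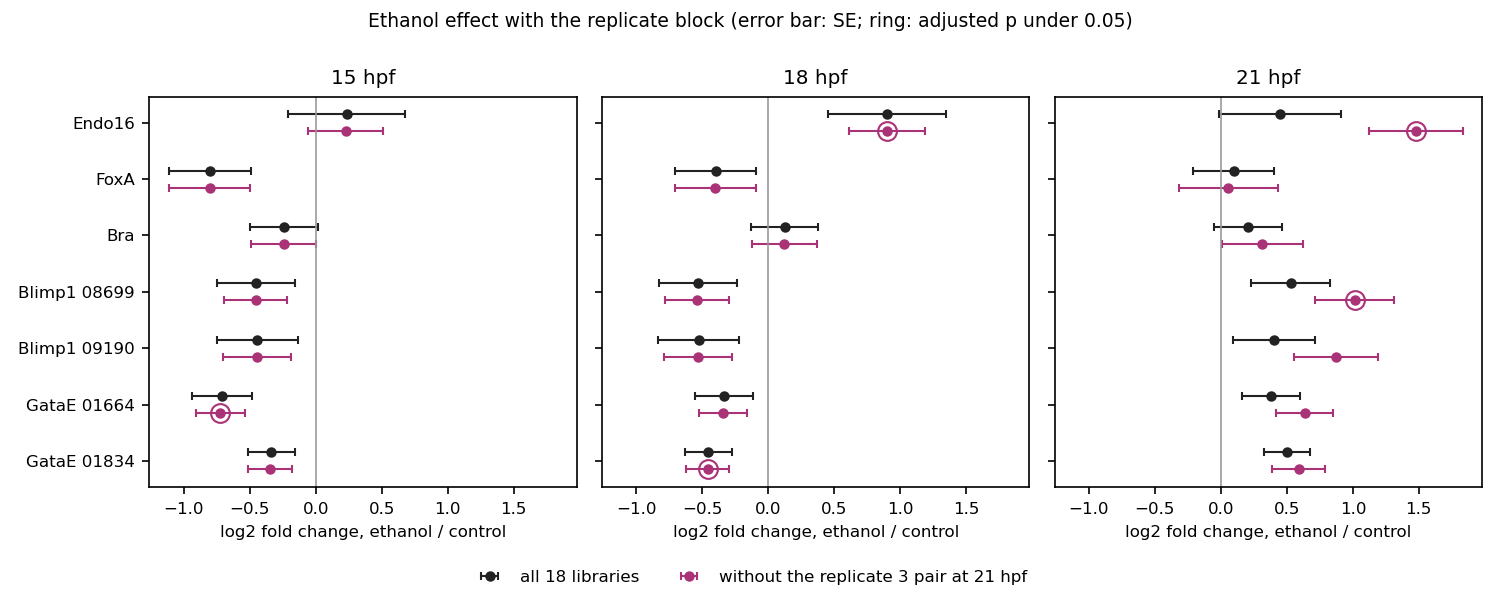
Log2 fold change of ethanol over control for the 7 member models at 15, 18 and 21 hpf, fitted with the replicate block. Points are estimates, error bars are SE, black points use all 18 libraries and purple points leave out both libraries of replicate 3 at 21 hpf. Rings mark an adjusted p under 0.05, of which there are 5, all among the purple points. The Blimp1 and GataE models lie left of 0 at 15 and 18 hpf and right of it at 21 hpf.

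The 2 Sp-Blimp1 and 2 Sp-GataE models shared an order over time. Each was lower in ethanol in all 6 pairs at 15 and 18 hpf, as were 21.4% of all gene models, and each was also higher in replicates 1 and 2 at 21 hpf, as were 0.728% of all gene models. The order leaves out replicate 3 at 21 hpf, where, as labelled, L_var_08699, L_var_09190 and L_var_01664 were lower in ethanol and L_var_01834 was higher. Their log2 differences there were -0.39, -0.45, -0.25 and 0.30. This order was picked after the values had been seen, so the 0.728% does not measure how rare it is. The order covers 2 genes, since models of 1 name share their libraries and may share reads. Sp-Endo16, Sp-FoxA and Sp-Bra did not show it. An F test of whether the ethanol effect depended on time called none of the 7 models and none of all gene models, with an adjusted p of 1.00 for each member. Its unadjusted p was 0.022 for L_var_01834 and 0.043 for L_var_01664, and it was above 0.05 for the other 5 models, while 413 of all gene models had an unadjusted p under 0.05. DESeq2 called 12 gene models, no member among them.

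The 2 models of Sp-Blimp1 and of Sp-GataE lay in repeated stretches of the annotated chromosomes. Around each Sp-Blimp1 model, the 20 gene models on either side shared 23 best hits with those around the other, of which 19 occurred once on each side. All 19 lay on opposite strands, and all 171 gene pairs stood in reversed order, so that the stretches were mirror images whose Sp-Blimp1 models started 14454762 bases apart. Around the Sp-GataE models 24 hits were shared, 20 of them once each. None of the 20 lay on opposite strands and 0 of 190 gene pairs were in reversed order, and the Sp-GataE models started 5473385 bases apart. The files do not show whether these are 2 genes each, 2 alleles or 2 copies made in assembly, and reads may have been divided between them in counting.

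The division of counts between the Sp-Blimp1 models followed the replicate number and not the treatment or the time. L_var_08699 held 48.5% to 54.4% of the summed count in the 6 libraries of replicate 1, 71.3% to 75.6% in those of replicate 2 and 46.6% to 50.6% in those of replicate 3. Replicate 2 was therefore apart from the other 12 libraries. In control replicate 1 at 15 hpf the share was 53.5% with a 95% Wilson interval from 52.1% to 55.0%, which covers counting error only. For Sp-GataE, L_var_01664 held 27.9% to 31.5%, 27.8% to 38.4% and 17.6% to 25.6% in replicates 1, 2 and 3, so that replicate 3 was the lowest. The pair of replicate 3 at 21 hpf, which ran against the others in its ethanol difference, kept the share of its replicate number for both genes. Among 11 neighbouring pairs of models at the Sp-Blimp1 stretches, 1 had a replicate number whose 6 libraries were apart from the other 12, and among 16 at the Sp-GataE stretches, 6 had one.

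**Figure D3:**
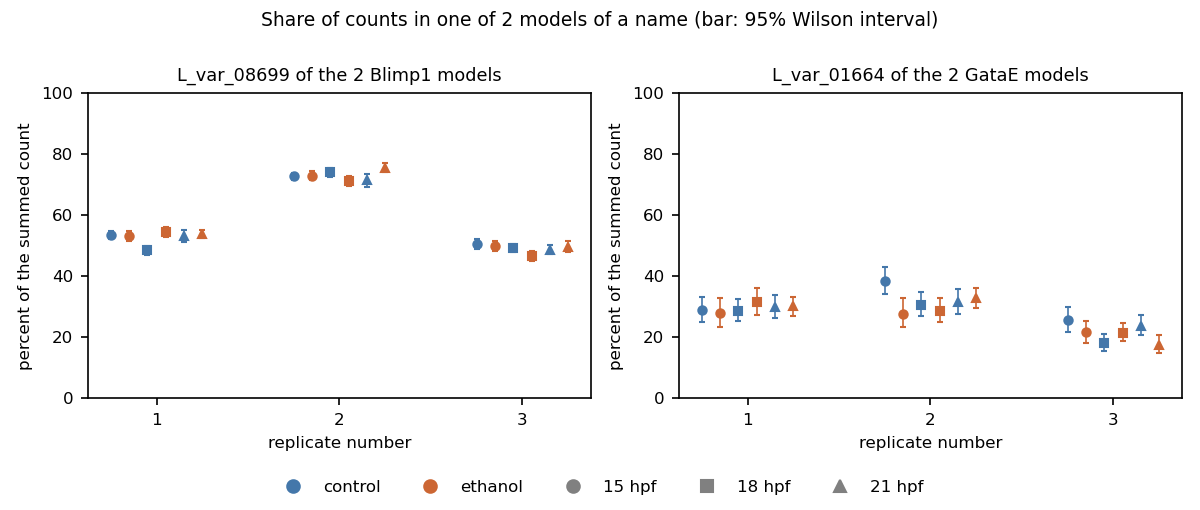
Percent of the summed count held by the first of 2 models, L_var_08699 for Blimp1 and L_var_01664 for GataE, in each library, grouped by replicate number. Points are libraries, colours give treatment, shapes give time and bars are 95% Wilson intervals. The 6 Blimp1 shares of replicate 2 lie between 71.3% and 75.6%, above all others.

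Over time and with the replicate block, Sp-Bra fell in control embryos, while Sp-Endo16 and Sp-GataE rose in ethanol embryos. Sp-Bra was lower at 21 than at 15 hpf in control embryos by a log2 difference of -1.10 ± 0.30 (adjusted p = 0.052), which passed the threshold with the replicate block (-1.11 ± 0.26, adjusted p = 0.010) and with DESeq2 (adjusted p = 0.006). Its 3 control libraries at 21 hpf, at most 227 CPM, were all below those at 15 hpf, at least 397 CPM, as was so for 8.84% of all gene models. In ethanol embryos the change of Sp-Bra was -0.67 ± 0.30 (adjusted p = 0.280), and 0.106 with the block. No member was called in control embryos without the block, where 3.88% of all gene models were, and 1 of 7, Sp-Bra, was called with it, where 13.3% were.

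In ethanol embryos 2 of 7 members, both Sp-GataE models, were called from 15 to 21 hpf, where 3.75% of all gene models were called. L_var_01664 rose by 1.15 ± 0.31 (adjusted p = 0.047) and L_var_01834 by 1.00 ± 0.23 (adjusted p = 0.022), and their sum rose by 1.04 ± 0.21 (adjusted p = 0.010), about 2.06-fold. With the block, their sum gave an adjusted p of 0.001344 and 3 members were called, Sp-Endo16 being the other one, at 1.56 ± 0.46 (adjusted p = 0.035), where 12% of all gene models were called. In control embryos summed Sp-GataE changed by 0.13 ± 0.21 (adjusted p = 0.818) and Sp-Endo16 by 1.37 ± 0.46 (adjusted p = 0.111, and 0.033 with DESeq2). That value of Sp-Endo16 rested on the library labelled control of replicate 3, and without the replicate 3 pair at 21 hpf it was 0.60 ± 0.35 (adjusted p = 0.389). In ethanol embryos, without that pair and without the block, Sp-Endo16 rose by 1.82 ± 0.35 (adjusted p = 0.011) and L_var_01664 by 1.44 ± 0.28 (adjusted p = 0.012), whereas L_var_01834 gave 1.01 ± 0.26 (adjusted p = 0.054), as 2.68% of all gene models were called. The calls of both Sp-GataE models without the block were lost when replicate 1, 2 or 3 was left out. These time changes share the libraries of the ethanol comparisons at 15 and 21 hpf, and the test of whether the ethanol effect depended on time did not pass the threshold.

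Sp-FoxA and Sp-Blimp1 were lower at 21 than at 15 hpf in control embryos without passing the threshold. Sp-FoxA changed by -1.02 ± 0.40 (adjusted p = 0.188, and 0.058 with the block) and summed Sp-Blimp1 by -0.78 ± 0.31 (adjusted p = 0.195, and 0.103 with the block). In ethanol embryos Sp-FoxA changed by -0.17 ± 0.40 (adjusted p = 0.908) and summed Sp-Blimp1 by 0.16 ± 0.31 (adjusted p = 0.878). With the block and without the pair of replicate 3 at 21 hpf, both Sp-Blimp1 models fell in control embryos, L_var_08699 by 1.14 on the log2 scale (adjusted p = 0.010) and L_var_09190 by 1.08 (adjusted p = 0.019). The same setting called Sp-Bra again (adjusted p = 0.012), with 18.4% of all gene models called.

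**Figure D4:**
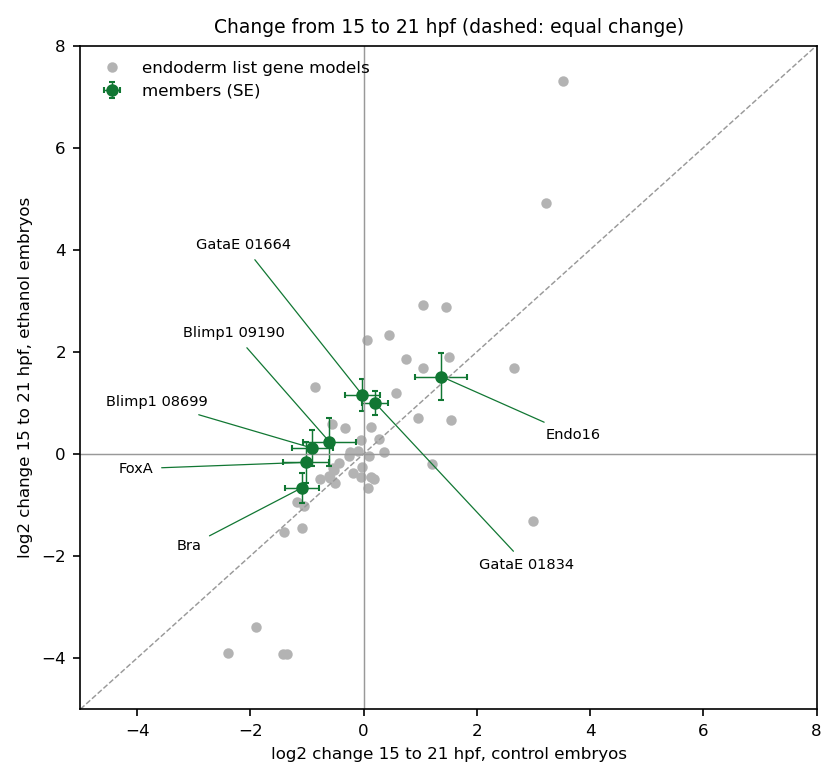
Log2 change from 15 to 21 hpf in ethanol embryos against that in control embryos, without the replicate block. Green points are the 7 member models with SE bars, grey points are the 47 tested models of the endoderm list and the dashed line marks equal change. GataE models lie near 0 in control embryos and at or above 1.00 in ethanol embryos, and Bra lies below 0 in both.

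Ordered by group mean, Sp-FoxA and Sp-Bra were highest in control embryos at 15 hpf (1860.1 and 453 CPM) and lowest in control embryos at 21 hpf (919.9 and 212 CPM). Summed Sp-Blimp1 had the same ends, 648 and 377 CPM. Sp-Endo16 ran from 579.6 CPM in control embryos at 15 hpf to 1971 CPM in ethanol embryos at 21 hpf. Summed Sp-GataE ran from 49.1 CPM in ethanol embryos at 15 hpf to 101 CPM in ethanol embryos at 21 hpf. Neighbouring groups in these orders overlapped in their ranges, except for summed Sp-GataE. There every control library at 18 hpf (mean 85.8 CPM) was above every control library at 21 hpf (mean 73.1 CPM). These groups were met by sorting on the means. The share of all gene models so separated was not counted, and no result is read from it.

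A list of 37 other names of the endoderm network and of gut genes was read beside the members. It matched 60 gene models of 34 names, and 47 models were tested. Without the block, none of the 47 was called at 15, 18 or 21 hpf, and 1 was called for the mean of the times. With the block 3 were called at 15 hpf (1 higher and 2 lower), 7 at 18 hpf (2 higher and 5 lower) and 0 at 21 hpf, which is 6.38%, 14.9% and 0.0% of the list beside 0.477%, 4.07% and 0.0% of all gene models. The lower models at 18 hpf included both models of Sp-Lox and both of Sp-Hnf4. Shares of the list, here and below, thus count models and not genes, and models of 1 name may share reads. Markers of other cell types, described below, gave 7.69%, 10.3% and 0.0% with the block at 15, 18 and 21 hpf. The list's median log2 difference without the block was -0.04, 0.03 and 0.05 at the 3 times.

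The list models lower in ethanol included Sp-Lox, Sp-Hnf4, Sp-Brn1/2/4, Sp-Ptf1a and Sp-Hh, named for their calls. Sp-Lox, the homologue of the pancreas and gut factor Pdx1, was the list model called for the mean of the times: L_var_00399 had a log2 difference of -2.67 ± 0.55 (adjusted p = 0.041). At 18 hpf its control libraries had 5.73, 13.8 and 14.6 CPM and its ethanol libraries 0.114, 1.21 and 0.529 CPM, and with the block its log2 difference was -4.21 (adjusted p = 0.043). That of its second model, L_var_00424, was -3.15 (adjusted p = 0.045). The sizes of these differences are uncertain, with few reads in the ethanol libraries. Ethanol libraries thus lay far below control libraries for L_var_00399 at 18 hpf, while in the pair of replicate 3 at 21 hpf the library labelled control had 6.05 CPM and the library labelled ethanol 34.3 CPM.

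Both models of Sp-Hnf4, a nuclear receptor known in vertebrates for its work in gut and liver, were lower at 18 hpf with the block, L_var_03737 with a log2 difference of -1.49 (adjusted p = 0.045) and L_var_03487 with one of -1.40 (adjusted p = 0.044). Control libraries of L_var_03737 had 14.3, 11.4 and 14.9 CPM and ethanol libraries 3.54, 4.70 and 6.34 CPM. Sp-Brn1/2/4, a POU factor that works in the gut of the purple sea urchin, was lower as well, at -1.47 (adjusted p = 0.045). At 15 hpf Sp-Ptf1a, L_var_21376, known in vertebrates from the exocrine pancreas, was lower with the block, at -2.21 (adjusted p = 0.0499), and so was the signal Sp-Hh, at -1.59 (adjusted p = 0.025).

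Higher in ethanol with the block were the list gene Sp-Mlckb, L_var_02414, by 2.87 at 15 hpf (adjusted p = 0.048) and 2.39 at 18 hpf (adjusted p = 0.048), and Sp-Wnt16, a Wnt ligand, by 1.45 at 18 hpf (adjusted p = 0.046). At 15 hpf Sp-Mlckb had 2.18, 0.511 and 0.705 CPM in control and 11.5, 8.69 and 5.47 CPM in ethanol libraries. The size of its difference is uncertain with so few reads. Sp-Wnt16 had 24.0, 13.5 and 10.9 CPM in control and 53.8, 34.8 and 41.0 CPM in ethanol libraries at 18 hpf. All its ethanol libraries were above all its control libraries, as was so for 13.5% of all gene models. At 21 hpf the smallest p-values of the list without the block belonged to Sp-Hox11/13b and Sp-Hnf1_1 among higher models, at 0.40 ± 0.20 and 0.73 ± 0.45, and to Sp-Mlckb and the Sp-Z474 model L_var_21465 among lower ones, at -1.46 ± 0.67 and -1.65 ± 0.94, all with an adjusted p of 1.0. Without the pair of replicate 3, L_var_21465 turned to 2.30 without and 2.33 with the block. With the block and without that pair, Sp-Mlckb was called lower at 21 hpf, at -2.21 (adjusted p = 0.0073). It was not called there without the block (adjusted p = 0.262). The F test of whether its ethanol effect depended on time gave an adjusted p of 0.0028 with the block and without that pair, and 0.468 without the block.

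From 15 to 21 hpf the list held more calls. In control embryos 6 of 47 models were called (12.8%, beside 3.88% of all gene models), 4 higher and 2 lower, and with the block 14 (29.8%, beside 13.3%). Sp-Lox L_var_00399 rose by 3.52 ± 0.81 (adjusted p = 0.024), and by 4.16 with the block and without the replicate 3 pair at 21 hpf, and Sp-Hnf4 L_var_03737 by 1.46 ± 0.38 (adjusted p = 0.042). Sp-Wnt8, the Wnt ligand that Blimp1 activates in the early purple sea urchin embryo, fell by 1.17 on the log2 scale (SE 0.29, adjusted p = 0.030), and Sp-SoxC, a Sox factor, fell by 0.77 (SE 0.19, adjusted p = 0.030). Markers of other cell types, described below, were called at 0.0% in control embryos and at 10.3% with the block. In ethanol embryos 13 models of the list were called (27.7%, beside 3.75%), 9 higher and 4 lower, and with the block 20 (42.6%, beside 12%). The markers gave 20.5% there, and 41.0% with the block, close to the share of the list. Sp-Lox L_var_00399 rose (adjusted p = 0.001441) from 0.0, 0.155 and 0.112 CPM at 15 hpf to 5.0, 7.55 and 34.3 CPM at 21 hpf, where replicate 3 was the highest, and no fold is given against so few reads. Sp-Hnf4 L_var_03487 rose by 2.93 ± 0.43 (adjusted p = 0.001255) and Sp-Wnt6, a Wnt ligand, by 1.68 ± 0.25 (adjusted p = 0.001255). The Sp-Z474 models, the annotation's name for the zinc finger gene listed as Krl, fell, L_var_21467 by 3.90 (SE 0.85, adjusted p = 0.016).

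Markers of 7 other cell types were measured in the same libraries. Of 46 marker models, 39 were tested, 39 had a count in every library and 2 had none in any library. At 18 hpf 0 of the 39 were called without the block and 4 with it, all lower, which is 10.3% of the markers beside 4.07% of all gene models. Their median log2 difference without the block was 0.35, and 27 of the 39 were above 0. Summed pigment cell markers lay between 3530 and 6737 CPM in control and between 7151 and 7448 CPM in ethanol libraries, and summed skeletogenic markers between 2011 and 2549 CPM in control and between 2844 and 3478 CPM in ethanol libraries. Both sums were thus higher in every ethanol library at 18 hpf, as was Sp-Endo16, while summed Sp-Blimp1 and Sp-GataE were lower. Taken singly, the models of Sp-Blimp1 and Sp-GataE overlapped between the groups there. Of all gene models, also taken singly, 13.5% were higher and 13.8% lower in every ethanol library at 18 hpf. At 15 hpf the pigment sums overlapped, at 5214 to 5895 and 3938 to 8513 CPM. The anterior neuroectoderm sums were 723 to 764 CPM in control and 337 to 516 CPM in ethanol at 15 hpf. Groups did not overlap, in either direction, for 14.2% of all gene models at that time. Oral ectoderm sums at 18 hpf were 348 to 455 and 535 to 625 CPM, ciliary band sums 363 to 489 and 235 to 324 CPM, aboral ectoderm sums 806 to 1004 and 780.2 to 871 CPM, and small micromere sums 179 to 194 and 213 to 264 CPM in control and ethanol. The part of these cell types in the members' differences was not tested.

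The gene models most like each member over the 18 libraries were found by Pearson correlation of log2 CPM among 11019 named models with a mean log2 CPM of at least 2, as a description. The points share their libraries, and with them depth, time and treatment. Sp-Endo16 was most like Sp-Golf (r = 0.951), annotated as a G protein alpha subunit, then Sp-Protease (r = 0.910) and Sp-Gcnt2_2 (r = 0.905). Sp-FoxA was most like Sp-TransglutL (r = 0.946), Sp-Ssr2 (r = 0.941) and Sp-SelcysL (r = 0.938), and Sp-Bra most like Sp-Sec62h (r = 0.895) and Sp-Tmem256 (r = 0.891). Likeness was lower for the models that come in pairs: L_var_08699 was most like Sp-Yipf1l (r = 0.851) and L_var_09190 most like Sp-Ugt2b33_1 (r = 0.876), so the 2 Sp-Blimp1 models had different nearest models. L_var_01664 was most like Sp-Prdm14_1 (r = 0.884). L_var_01834 was most like the 2 models of Sp-Nacha3 (r = 0.882 and 0.880), and then its neighbour on chromosome 1, Sp-GataL (r = 0.874).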

How the data were processed

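RNA-seq read counts of 18 libraries, 3 in each of 6 groups, were analysed. The authors deposited whole-number counts per gene model, neither pooled nor normalized, and the submitters' processing notes name fastp, STAR and featureCounts, with no settings. Strand, build and filters are not given in the sources used here. The deposited annotation gives each gene model a position and, in percent identity per the file headers, its best purple sea urchin hit. Column numbers were tied to groups through the deposited sample sheet, reading its letters A to C as replicate numbers 1 to 3, which no label states.

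Counts were fitted in R 4.3.3 with edgeR 4.0.16 (quasi-likelihood, 6 group means, TMM, filterByExpr at its defaults of 10 counts, and 15 in total), two-sided, with Benjamini-Hochberg adjustment over 18674 gene models and a threshold of 0.05. The SE of a log2 change approximates its size over root F. CPM use TMM-scaled library sizes, and log2 CPM a prior count of 2. The script was tested on simulated data. The simulation held no replicate effect and no reversed pair, so it does not bear on calls that turn on the block or on the replicate 3 pair. Totals of 7133636 to 8000894 counts set the precision, and intervals cover counting error only.

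The replicate block is a term for the replicate number. Deviations from group means correlated at 0.600 to 0.742 between same-numbered control and ethanol libraries at 15 and 18 hpf and at 0.223 to 0.611 between 15 and 21 hpf within a treatment, so these were taken as paired. The pairs at 21 hpf gave 0.156, 0.402 and -0.222, and the block term covered these libraries as well. Without the pair of replicate 3 the 8 others gave 0.590 to 0.742. In that setting replicates 1 and 2 at 21 hpf share the same correlation, since their deviations from a group mean are equal and opposite. The pairing comes from the replicate numbers in the labels.

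Members, lists and tests were chosen with earlier results of these data known. List genes were named where called without or with the block, otherwise by the 2 smallest p-values in each direction, at most 10 per comparison. Myc, Hex and Apobec of the list found no name in the annotation. Summing of same-name models was added after the data had been seen. Alternatives were the block, DESeq2 1.42.0, other size factors, no filter, and leaving out replicates or the replicate 3 pair at 21 hpf. One of the models most like Bra is not reported here.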

Additional observations from a re-analysis of the deposited data

Results flagged for a closer look

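GataE drew attention because its ethanol difference changed direction with time. For L_var_01834 and for the sum of both GataE models, all 3 pairs were lower in ethanol at 15 and 18 hpf. All 3, as labelled, were higher at 21 hpf. The labels of the replicate 3 pair at 21 hpf may be exchanged, and its log2 differences were 0.30 for L_var_01834 and 0.18 for the sum. With exchanged labels that pair would be lower in ethanol, so the pattern over all 3 pairs rests on the labels as given. The test of the change in direction, edgeR's F test that the ethanol effect is equal at the 3 times, gave an adjusted p of 1.00 for both. Its unadjusted p was 0.022 for L_var_01834 and 0.011 for the sum. With the replicate block the adjusted p was 0.593 and 0.613, and with the block and without the replicate 3 pair at 21 hpf it was 0.213 and 0.170. The difference between times was therefore not past the threshold under any of these settings.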

How the results depend on the processing

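Calls depended mostly on the replicate block and on the pair of replicate 3 at 21 hpf, and the cause was not tested. With one replicate left out the fit keeps 2 libraries a group, and ranges below run over those fits without and with the block. Among values of single gene models, 952 kept their direction and side of the threshold, 131 passed it where they had not, 66 no longer did and 33 turned sign. With all 18 libraries the block changed no member's call at 15, 18 or 21 hpf. DESeq2's size factors used in edgeR moved no count given here by over 1.5 times. Library depth, at 7133636 to 8000894 counts, limits models of few reads such as Sp-Lox in ethanol embryos at 15 hpf.

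Members called for ethanol against control numbered 1, 2 and 2 at 15, 18 and 21 hpf with the block and without the 21 hpf pair of replicate 3. Of all gene models, 15.4%, 26.9% and 10.7% were called there. Without that pair and without the block 0 members were called each time. The 21 hpf count ran from 0 to 1 with one replicate left out. For the mean over times 1 was called without that pair, beside 18.3% of all gene models without the block, and 1 beside 45.4% with it. With one replicate left out 0 to 1 were called. From 15 to 21 hpf in control embryos 1 was called with the block, beside 13.3% of all gene models, and 2 with DESeq2. With the block and without that pair 3 were called, beside 18.4%, and 0 to 2 with one replicate left out. In ethanol embryos 1 was called without the low-count filter and 0 to 3 with one replicate left out. Counts of all gene models with DESeq2 and with one replicate left out are given below, and none is given for the fit without the filter.

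Of the endoderm list, 3 models were called at 15 hpf, 7 at 18 hpf and 18 for the mean with the block, and 3, 4 and 9 with DESeq2. Without the replicate 3 pair at 21 hpf the counts were 3 at 18 hpf and 20 for the mean, and with the block added 17, 21 and 12 at 15, 18 and 21 hpf and 28 for the mean. With one replicate left out they ran from 0 to 3, 0 to 11 and 0 to 9 at the 3 times and from 0 to 24 for the mean. The dependence on time gave 1 call with DESeq2 and 3 with the block and without that pair. From 15 to 21 hpf in control embryos 14 were called with the block, 12 with DESeq2, 13 without that pair, 25 with both changes and 0 to 16 with one replicate left out. In ethanol embryos these were 20 with the block, 23 with both changes and 4 to 18 with one replicate left out.

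Over all gene models, the block called 89 at 15 hpf, 760 at 18 hpf and 3950 for the mean, and DESeq2 161, 280 and 1453. Leaving out the replicate 3 pair at 21 hpf called 79, 316 and 12 at the 3 times and 3500 for the mean, and with the block added 2943, 5134, 2037 and 8671. With one replicate left out the counts ran from 0 to 334, 0 to 1140 and 0 to 1241 at the 3 times and from 0 to 5933 for the mean. The dependence on time gave 12 calls with DESeq2, 2 without that pair, 38 with the block added and 0 to 3 with one replicate left out. From 15 to 21 hpf in control embryos the block called 2475, DESeq2 1493, both changes 3517 and leaving out one replicate 0 to 2153. In ethanol embryos these were 2245, 1329, 2241 and 55 to 1345.

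Signs turned where log2 differences were small beside their SE or rested on 1 replicate. With one replicate left out, Endo16 ran from -0.029 to 0.47 at 15 hpf and from -0.28 to 1.49 at 21 hpf, and Bra from -0.0082 to 0.22 at 18 hpf, from -0.032 to 0.38 at 21 hpf and from -0.064 to 0.17 for the mean. Blimp1 L_var_09190 ran from -0.16 to 0.97 at 21 hpf, and L_var_08699 from -0.25 to 0.059 for the mean, where it was 0.014 without the replicate 3 pair at 21 hpf and 0.0060 with the block added. From 15 to 21 hpf, GataE L_var_01664 in control embryos was 0.017 with the block, 0.054 without that pair and -0.12 to 0.22 with one replicate left out. In ethanol embryos FoxA was 0.020 with the block and without that pair and -0.47 to 0.41 with one replicate left out, L_var_08699 ran from -0.35 to 0.55 and L_var_09190 from -0.42 to 0.50. The list model Sp-Z474 L_var_21465 at 21 hpf was 2.30 without that pair, 2.33 with the block added and -2.41 to 2.33 with one replicate left out.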
